A study of Mus musculus with 6 samples.

Results

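The Zscan4 and Tcstv genes are multi-copy mouse families of the 2-cell stage, and 8 annotated copies were followed here: Zscan4a to Zscan4f on chromosome 7 and Tcstv1 and Tcstv3 on chromosome 13. They were taken by gene symbol, 1 row each, from the 55335 genes with an expression value. RNA had been measured by Smart-Seq2, a method for tiny inputs that primes on the poly(A) tail and amplifies whole cDNAs. The labels do not give the number of embryos in a library. The DRB group holds 3 libraries of 4-cell mouse embryos that had been exposed to DRB, a nucleoside analogue that blocks elongation by RNA polymerase II through inhibition of the kinase CDK9. The inhibitor was given at 20 µM from 6 h after fertilization for 20 h, and the embryos then grew for 26 h after washing. The other group holds 3 control libraries (Con) of 4-cell embryos, for which the labels name neither a vehicle nor a strain. The labels also do not say how long Con embryos grew, so age at collection cannot be told apart from treatment. Whether replicates are separate cultures or matings is not stated. The p-values therefore cover only the spread between these libraries, which may be technical.

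Zscan4 genes encode proteins with a SCAN domain, which binds other SCAN proteins, and zinc fingers of the C2H2 type. They are transcribed in a burst late in the 2-cell stage and again, briefly, in rare cells of embryonic stem cell cultures, where Zscan4 is known for telomere lengthening and genome stability. The activator Dux drives this programme together with many other multi-copy genes. Tcstv1 and Tcstv3 are expressed in the same window, and their products are also known for telomere lengthening in mouse embryonic stem cells.

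The copies of a family are so alike that their sequences decide how far the values of single copies can be read. Start windows of 4 Zscan4 copies are held by RefSeq (GRCm38.p6), from 250 bases before to 50 after the annotated start: Zscan4b at chr7:10905001-10905300 on the minus strand, Zscan4c at chr7:11005495-11005794 on the plus strand, Zscan4d at chr7:11166099-11166398 on the minus strand and Zscan4f at chr7:11397665-11397964 on the plus strand. They are shown because these copies are scattered over the cluster and yet share nearly the same start region, and capitals mark the letters CTATAAAAG and TGATTCAA, chosen after the sequences had been read.
Zscan4b: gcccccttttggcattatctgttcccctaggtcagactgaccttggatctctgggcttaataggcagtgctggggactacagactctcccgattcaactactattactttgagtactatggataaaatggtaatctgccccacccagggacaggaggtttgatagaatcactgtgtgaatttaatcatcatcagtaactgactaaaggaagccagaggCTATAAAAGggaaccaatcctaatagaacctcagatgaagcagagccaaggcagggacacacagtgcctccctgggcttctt
Zscan4c: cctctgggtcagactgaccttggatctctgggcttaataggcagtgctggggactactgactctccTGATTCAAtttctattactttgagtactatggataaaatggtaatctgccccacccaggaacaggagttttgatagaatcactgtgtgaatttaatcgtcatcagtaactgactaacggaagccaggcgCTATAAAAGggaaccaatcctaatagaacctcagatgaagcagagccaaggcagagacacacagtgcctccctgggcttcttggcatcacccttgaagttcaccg
Zscan4d: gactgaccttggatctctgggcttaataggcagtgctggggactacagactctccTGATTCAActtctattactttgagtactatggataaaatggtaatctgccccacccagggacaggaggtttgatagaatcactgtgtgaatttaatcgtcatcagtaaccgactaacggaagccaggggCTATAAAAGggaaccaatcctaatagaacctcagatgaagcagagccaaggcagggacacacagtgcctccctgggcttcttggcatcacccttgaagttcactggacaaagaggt
Zscan4f: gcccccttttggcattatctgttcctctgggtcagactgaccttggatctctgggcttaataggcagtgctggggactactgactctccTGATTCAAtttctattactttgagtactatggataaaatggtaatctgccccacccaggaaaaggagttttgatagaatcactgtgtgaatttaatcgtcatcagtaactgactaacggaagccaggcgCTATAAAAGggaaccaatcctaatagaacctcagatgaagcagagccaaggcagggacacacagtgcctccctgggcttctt
The 4 windows were 95.3% to 99.3% identical over their aligned bases. CTATAAAAG was found in 4 of the 4 windows, at position -55 in Zscan4c, -66 in Zscan4d and -32 in Zscan4b and Zscan4f, counted from the annotated start. On either strand it occurs in 0.502% of all 32851 RefSeq start windows. TGATTCAA was found in Zscan4c, Zscan4d and Zscan4f but not in the Zscan4b window, and occurs in 0.581% of all windows on either strand. A match is a description of the letters and not a bound site.

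The copies lie, in GRCm38, at chr7:10794242-10799057 (Zscan4a, minus strand), chr7:10900740-10905050 (Zscan4b, minus), chr7:11005745-11010547 (Zscan4c, plus), chr7:11161374-11166159 (Zscan4d, minus), chr7:11306378-11310682 (Zscan4e, minus) and chr7:11397915-11402318 (Zscan4f, plus). Tcstv1 lies at chr13:119893388-119894785 on the minus strand and Tcstv3 at chr13:120316878-120318178 on the plus strand. The transcripts of the Zscan4 copies differ as little as their start windows. Over their longest annotated transcripts (GENCODE M21, GRCm38) the 6 Zscan4 copies were 96.6% to 99.7% identical in pairs, with 99.5% between Zscan4c and Zscan4f. The next lines give the 90 coding bases in which Zscan4c, Zscan4d and Zscan4f differ most, coding bases 676 to 765 of each, at chr7:11009151-11009240 (plus strand), chr7:11162677-11162766 (minus strand) and chr7:11401344-11401433 (plus strand), with capitals at the 8 positions where the copies are not all the same.
Zscan4c: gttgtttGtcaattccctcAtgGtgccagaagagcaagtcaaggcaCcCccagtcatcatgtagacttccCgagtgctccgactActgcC
Zscan4d: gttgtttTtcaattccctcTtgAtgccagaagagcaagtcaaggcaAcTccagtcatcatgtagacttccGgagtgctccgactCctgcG
Zscan4f: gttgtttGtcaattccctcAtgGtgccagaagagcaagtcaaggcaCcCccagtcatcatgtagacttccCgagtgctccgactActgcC
Zscan4d stands apart from the other two at these positions, and Zscan4c and Zscan4f carry the same letters throughout, so these bases alone cannot place a fragment in Zscan4c or in Zscan4f. Tcstv1 and Tcstv3 are further apart, 94.5% identical over their coding part and 85.2% over 779 aligned transcript bases. Their most different 90 coding bases, coding bases 368 to 457 at chr13:119893638-119893727 (minus strand) and chr13:120317934-120318023 (plus strand), hold 12 differing positions in capitals.
Tcstv1: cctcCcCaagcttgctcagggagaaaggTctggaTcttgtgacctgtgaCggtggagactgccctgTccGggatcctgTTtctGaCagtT
Tcstv3: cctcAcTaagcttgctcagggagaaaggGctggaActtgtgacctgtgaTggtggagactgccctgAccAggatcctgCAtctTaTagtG

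A measure of how well reads can be placed is the share of all 150-base windows of a transcript, the read length, that occur in no other annotated gene. It was 100% in Tcstv1 and in Tcstv3. Among Zscan4 copies it was 87% in Zscan4d, 74.9% in Zscan4a, 39% in Zscan4c, 31.6% in Zscan4b, 22.6% in Zscan4e and 13.8% in Zscan4f. Zscan4d and the Tcstv genes can therefore be read nearly as single genes, while the values of Zscan4c and Zscan4f depend on how shared reads were assigned, a step the sources used here do not describe.

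**Figure D1:**
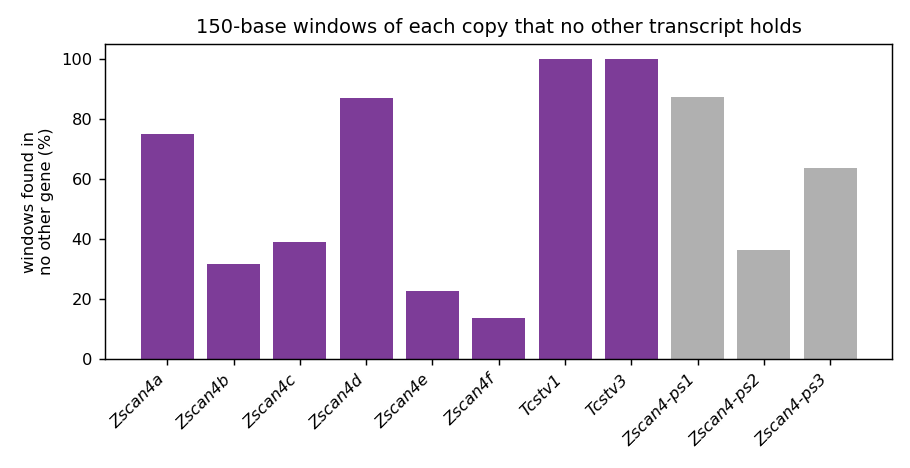
Bars give the percentage of 150-base windows of each copy's longest transcript that are found in no other annotated gene, in purple for the 8 members and in grey for 3 further Zscan4 copies whose symbols name them pseudogenes. Tcstv1 and Tcstv3 stand at 100% and Zscan4f at 13.8%.

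The libraries were sequenced about equally deeply. The steps of low FPKM values (fragments scaled to transcript length and to library size), read with a fixed number of bases taken off each transcript length, gave 21900000 to 25200000 fragments per library, with 74% to 81.6% of low values within 0.15 of a whole fragment. Mitochondrial genes took 23.94% to 26.36% of all FPKM in DRB libraries and 12.23% to 19.96% in Con libraries. Con replicate 1 had 22102 genes above 0, against 18485 to 19895 in the others. Of the markers of oocytes and embryos 8 of 8 were measured in every library, and their summed level was 91.8 to 149.6 FPKM in DRB and 126.8 to 175.8 FPKM in Con. Of 8 cumulus cell markers 4, among them Amh and Fshr, were at 0 in all 6 libraries; the sum of the list was 143.7 to 275.7 FPKM in DRB and 213 to 387.1 FPKM in Con, nearly all of it Gja1 and Amhr2. Sperm markers summed to 12.3 to 24.2 FPKM in DRB and 12.7 to 22.7 FPKM in Con, with Tnp2 at 0 in every library, and blood cell markers to 47 to 87.3 FPKM in DRB and 74.3 to 114 FPKM in Con. Their part in the results below was not tested.

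The question was whether 4-cell embryos that had been kept in DRB earlier, and washed, carried more or less Zscan4 and Tcstv RNA than control embryos. All 6 tested copies had higher means in DRB embryos, but the libraries of a group differed from each other by more than the groups did, and 0 of the 6 passed limma's test across all genes. The DRB and Con libraries overlapped in 8 of 8 copies, where 23.8% of all tested genes had groups that did not overlap. At an unadjusted p below 0.05 there was 1, Tcstv3. Over all 11893 genes tested, 2.48% were called at a Benjamini-Hochberg adjusted p below 0.05 and 18.1% had an unadjusted p below 0.05, among them 7.53% that were higher in DRB. Those calls were 182 higher and 113 lower in DRB, and 223 higher and 84 lower with median-of-ratios scaling or 191 higher and 74 lower with mitochondrial genes left out. In bulk libraries, fewer cells with a transcript and less of it per cell cannot be told apart.

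Tcstv3 was the most abundant copy and had the largest fold change of the 6. It stood at 14.9, 83.7 and 20.8 FPKM in DRB replicates 1 to 3, against 19.7, 10.4 and 0.67 FPKM in Con replicates 1 to 3. DRB replicate 2 was high and Con replicate 3 was close to 0, and DRB replicate 1 lay below Con replicate 1, so the groups overlapped. Its mean was 39.8 ± 38.1 FPKM in DRB and 10.3 ± 9.54 FPKM in Con (SD, n = 3 each). On the log2(FPKM + 1) scale the fold change was 2.07 ± 0.86 SE with a 95% interval of 0.18 to 3.96, an unadjusted limma p of 0.0344 and an adjusted p of 0.233. It was 1.34 without DRB replicate 2 and 1.00 without Con replicate 3.

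Tcstv1, too, was highest in DRB replicate 2 and lowest in Con replicate 3. Its values were 7.11, 36.1 and 7.48 FPKM in DRB replicates 1 to 3, against 16.9, 8.47 and 2.06 FPKM in Con replicates 1 to 3. The remaining DRB libraries, 1 and 3, lay below Con replicates 1 and 2. The mean was 16.9 ± 16.6 FPKM in DRB and 9.14 ± 7.43 FPKM in Con (SD, n = 3 each), a log2 fold change of 0.77 ± 0.71 SE (95% interval -0.80 to 2.33, limma adjusted p 0.633). Without DRB replicate 2 it was 0.05, and without Con replicate 3 it was 0.07.

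The balance between the Tcstv copies varied less between DRB libraries than their levels did. Tcstv3 was 2.09, 2.32 and 2.78 times as abundant per length as Tcstv1 in DRB replicates 1 to 3, against 1.17, 1.23 and 0.325 times in Con replicates 1 to 3. Every DRB library lay above every Con library, and Con replicate 3, whose Tcstv values were the lowest, also had the lowest ratio. The log2 of this ratio averaged 1.25 ± 0.21 in DRB and -0.37 ± 1.09 in Con (SD, n = 3 each), a difference of 1.62. A two-sided exact permutation test gave p = 0.1, which is the lower limit for 3 against 3. For groups that do not overlap, as here, that test can give no other value, so the p adds no support. The difference was 0.99 without Con replicate 3. This ratio was looked at after the values had been seen.

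**Figure D2:**
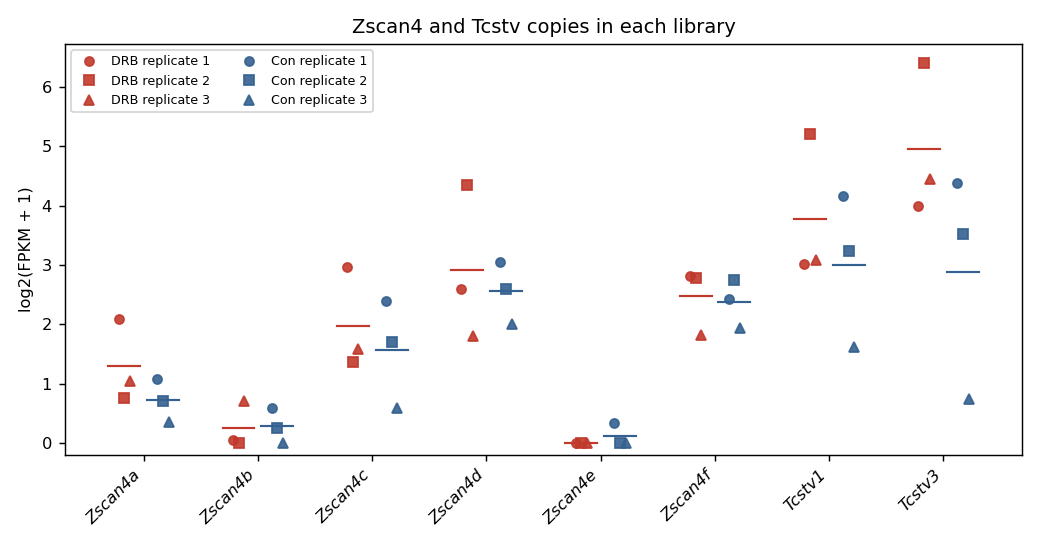
Each point is 1 library's log2(FPKM + 1) for 1 copy, red for DRB and blue for Con, with a shape for each replicate and a bar at the group mean. In all 8 copies the groups overlap, and DRB replicate 2 stands highest in Zscan4d, Tcstv1 and Tcstv3.

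Among the Zscan4 copies Zscan4d, which has most of its sequence to itself, was the highest on average. It had 5.04, 19.4 and 2.47 FPKM in DRB replicates 1 to 3, against 7.26, 5.07 and 3.03 FPKM in Con replicates 1 to 3. Only DRB replicate 2 exceeded the Con libraries, and DRB replicate 3 was the lowest of the 6. The log2 fold change was 0.36 ± 0.61 SE (95% interval -0.99 to 1.71, limma adjusted p 0.823), and it turned to -0.36 without DRB replicate 2. By the estimated depth these values stand for about 131 to 953 amplified fragments in a library.

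Zscan4f had 6.05, 5.88 and 2.51 FPKM in DRB replicates 1 to 3, against 4.37, 5.73 and 2.82 FPKM in Con replicates 1 to 3. Its groups were nearly the same, with a log2 fold change of 0.10 ± 0.45 SE (95% interval -0.89 to 1.09, limma adjusted p 0.937) that was slightly below 0 in 3 of the 6 fits without 1 library. Zscan4c had 6.85, 1.57 and 2 FPKM in DRB replicates 1 to 3, against 4.28, 2.27 and 0.5 FPKM in Con replicates 1 to 3. DRB replicate 1 was the highest library and Con replicate 3 the lowest, with the others between them. The log2 fold change of Zscan4c was 0.41 ± 0.58 SE (95% interval -0.87 to 1.69, limma adjusted p 0.776), and -0.09 without DRB replicate 1 and -0.08 without Con replicate 3. The value of Zscan4c rests on about 23 fragments in Con replicate 3 and on 77 to 341 in the others.

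The remaining copies were low. Zscan4a, which GENCODE and RefSeq annotate as a pseudogene, had 3.27, 0.7 and 1.06 FPKM in DRB replicates 1 to 3, against 1.12, 0.64 and 0.28 FPKM in Con replicates 1 to 3. DRB replicate 1 alone lay well above the Con libraries (log2 fold change 0.58 ± 0.45 SE, limma adjusted p 0.547). Zscan4b and Zscan4e did not reach the filter of at least 1 FPKM in at least 3 libraries and were not tested. Zscan4b had 0.04, 0 and 0.64 FPKM in DRB replicates 1 to 3 and 0.5, 0.19 and 0 FPKM in Con replicates 1 to 3. Zscan4e was listed at 0 in every library except Con replicate 1, at 0.26 FPKM. RefSeq lists Zscan4e as a pseudogene and GENCODE as protein-coding, and both list Zscan4b as protein-coding.

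By mean FPKM the order was Tcstv3, Tcstv1, Zscan4d, Zscan4f, Zscan4c and Zscan4a in DRB and likewise in Con. In both groups the ranges of neighbours in that order overlapped. Another 3 copies of the cluster, named Zscan4-ps1, Zscan4-ps2 and Zscan4-ps3 although GENCODE types them as protein-coding, reached at most 2.73 FPKM in a DRB library and 2.71 FPKM in a Con library, in each case Zscan4-ps3. Gm45551, which matches Zscan4e over 321 bases at 98.4% identity, stayed at or below 0.41 FPKM.

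A sum over copies depends less than single values on how reads were split among the 6 Zscan4 copies. It is not free of the split, since FPKM scales by transcript length and their longest transcripts run from 1745 to 2279 bases. The sum also leaves out reads that were discarded or given to related genes outside it. The Zscan4 sum was 21.3, 27.5 and 8.68 FPKM in DRB replicates 1 to 3, against 17.8, 13.9 and 6.63 FPKM in Con replicates 1 to 3. In DRB 2 of 3 libraries lay above the highest Con library and the other lay below 2 of the Con libraries. The means were 19.2 ± 9.60 FPKM in DRB and 12.8 ± 5.66 FPKM in Con (SD, n = 3 each), a ratio of 1.5, within a spread of 3.17-fold among DRB libraries and 2.68-fold among Con libraries. The Tcstv sum was 22.0, 119.8 and 28.3 FPKM in DRB replicates 1 to 3, against 36.6, 18.9 and 2.73 FPKM in Con replicates 1 to 3. Its means were 56.7 ± 54.7 FPKM in DRB and 19.4 ± 17 FPKM in Con (SD, n = 3 each), a ratio of 2.92 that became 1.3 without DRB replicate 2 and 5.24 without Con replicate 1. No p is given for these sums, since they are scores over chosen members.

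Which Zscan4 copy led also varied from library to library. Zscan4d, Zscan4c and Zscan4f together made up 80.4% to 97.5% of the family sum in DRB libraries and 89.5% to 95.7% in Con libraries. Zscan4d alone made up 70.4% in DRB replicate 2, against 23.7% and 28.5% in the other DRB libraries and 36.5% to 45.7% in Con libraries. The leading copy was Zscan4c in DRB replicate 1, Zscan4d in DRB replicate 2 and Zscan4f in DRB replicate 3, and Zscan4d, Zscan4f and Zscan4d in Con replicates 1 to 3. The margin was small in DRB replicate 3, where Zscan4f and Zscan4d made up 28.9% and 28.5%.

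**Figure D3:**
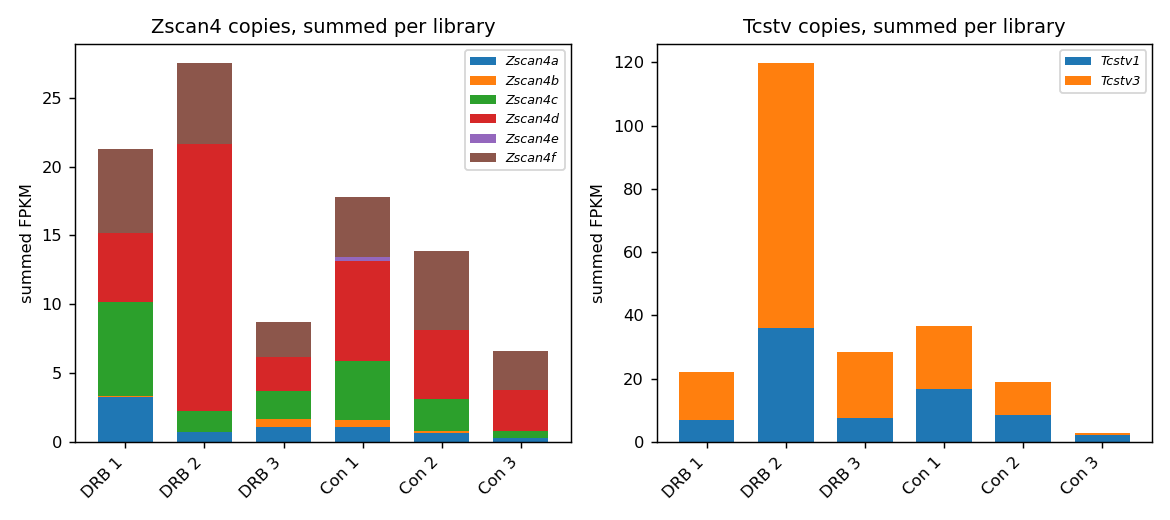
Stacked bars give the summed FPKM of the 6 Zscan4 copies (left) and of Tcstv1 and Tcstv3 (right) in each library, with a colour per copy. DRB replicate 2 is the highest library in both families, through Zscan4d on the left and Tcstv3 on the right, and Con replicate 3 is the lowest in both.

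Some genes next to the Tcstv copies passed the test that the copies did not pass. Within 500 kb of the outermost Tcstv copies 16 of 42 annotated genes were tested, and 10 of these 16 have transcripts related to Tcstv1 or Tcstv3, at 77.9% to 93.4% identity by blastn. In all 10 the log2 fold change was above 0, at a median of 1.62, where the median of all tested genes was -0.09 and 44% were positive. Of the 10, 2 were called higher and 0 lower, against 1.53% of all tested genes called higher, and 4 had every DRB library above every Con library, against 9.85% of all tested genes. These 10 lie close together and share sequence, so they are not independent of each other.

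The 2 called genes were AF067063 and D13Ertd608e, whose products have no role known with certainty here. AF067063 was the most abundant of the 10 relatives, at 327.5, 358.4 and 443.2 FPKM in DRB replicates 1 to 3, against 167.4, 143.0 and 81.6 FPKM in Con replicates 1 to 3. All DRB libraries lay above all Con libraries, with a log2 fold change of 1.57 ± 0.31 SE and a limma adjusted p of 0.0251. D13Ertd608e had 79.0, 88.7 and 63.2 FPKM in DRB replicates 1 to 3, against 27.4, 10.8 and 7.49 FPKM in Con replicates 1 to 3. Here too the groups did not overlap, with a log2 fold change of 2.45 ± 0.43 SE and a limma adjusted p of 0.0168. Of the 6 fits without 1 library AF067063 was called in 1 and D13Ertd608e in 3. With 53.3% and 27% of their 150-base windows found in no other gene, some of their reads could belong to relatives.

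Gm21762 and Gm21761 also did not overlap between groups but missed the threshold. Gm21762 stood at 64.9, 71.0 and 52.6 FPKM in DRB replicates 1 to 3, against 28.5, 20.6 and 6.12 FPKM in Con replicates 1 to 3 (log2 fold change 1.94, limma adjusted p 0.0593). Gm21761 stood at 14.4, 18.5 and 22.3 FPKM in DRB replicates 1 to 3, against 9.72, 6.6 and 1.55 FPKM in Con replicates 1 to 3 (log2 fold change 1.69, limma adjusted p 0.117). The other 6 relatives, Gm21731, BC147527, B020031M17Rik, Gm21818, AF067061 and Gm20767, overlapped between groups as Tcstv1 and Tcstv3 did. Over Tcstv1, Tcstv3 and these 10 relatives, Con replicate 3 was the lowest library in 10 of 12 genes, and DRB replicate 2 the highest in 8 of 12. Con replicate 3 held 0 FPKM of BC147527 and of Gm21818, 0.06 FPKM of B020031M17Rik and 0.13 FPKM of Gm20767, where Con replicate 1 held 24.6, 19.3, 26.2 and 25.8 FPKM. The unrelated genes of the interval included Hmgcs1, an enzyme of cholesterol synthesis, at a log2 fold change of 0.99 (limma adjusted p 0.086), with all DRB libraries above all Con libraries. The other 5 unrelated genes overlapped between groups, with Zfp131, Paip1 and Tmem267 at 0.20, 0.05 and 0.03 and Gm20900 and 4833420G17Rik at -0.20 and -0.39 on the log2 fold scale.

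**Figure D4:**
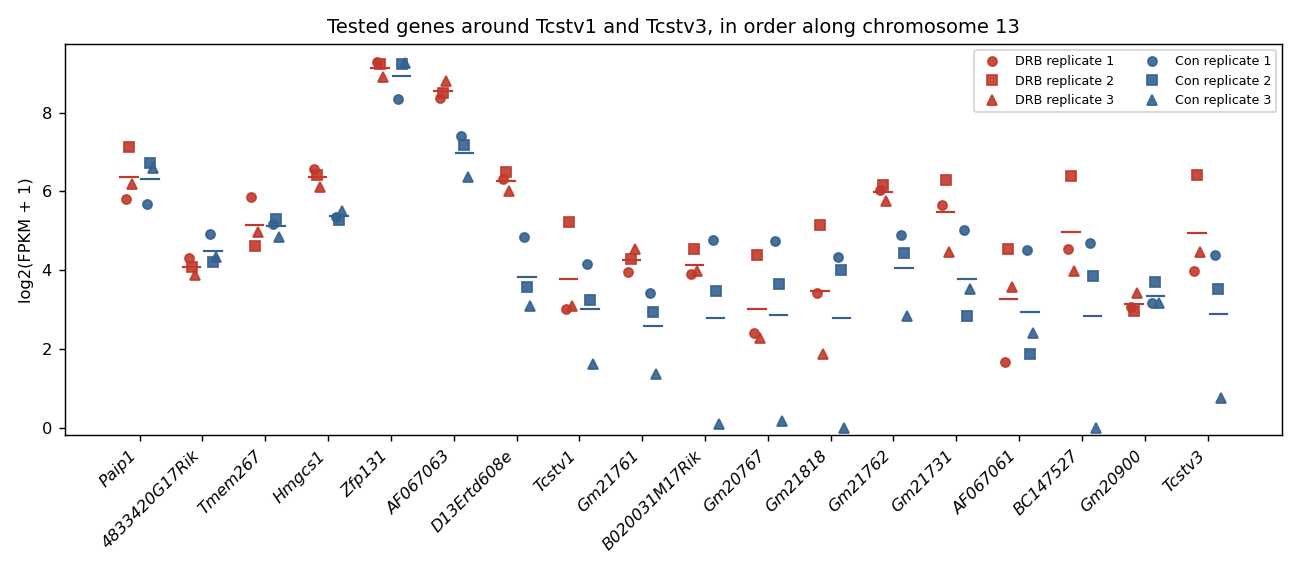
Points give log2(FPKM + 1) per library for Tcstv1, Tcstv3 and the 16 tested genes within 500 kb, in order along chromosome 13 (not to distance), red for DRB and blue for Con, with bars at the group means. AF067063, D13Ertd608e, Gm21761, Gm21762 and Hmgcs1 have all DRB points above all Con points, and Con replicate 3 lies at or below 0.13 FPKM in BC147527, Gm21818, B020031M17Rik and Gm20767.

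Around the Zscan4 copies few genes were expressed. Within 500 kb of the outermost copies 6 of 84 annotated genes were tested and 55 were at 0 in all libraries. The gene called was Gm6909, an unprocessed pseudogene between Zscan4d and Zscan4e, at 11.9, 9.59 and 4.41 FPKM in DRB replicates 1 to 3, against 0, 0.11 and 0.06 FPKM in Con replicates 1 to 3. Its log2 fold change was 3.10 ± 0.44 SE with a limma adjusted p of 0.00647, but it entered the fit only through the 3 DRB libraries, where it is high, and was not tested when any of them was left out. The pseudogenes Gm18204, Gm45598 and Gm7789 also lie between the outermost Zscan4 copies. Their log2 fold changes were 1.93, 1.52 and 0.95 (adjusted p by limma 0.0591, 0.11 and 0.255). All DRB libraries lay above all Con libraries in 5 of the 6 tested genes (these 3, Gm6909 and Gm6900), against 9.85% of all tested genes. In Gm6909 the filter fixed this order, since no Con library reached 1 FPKM, so it adds nothing to the count. None of these 5 transcripts matched a Zscan4 transcript by blastn. They lie close together and were not compared with each other in sequence, so they may not be independent. Gm6900, outside the copies, had a log2 fold change of 0.53 (limma adjusted p 0.455), and Nlrp4b, of a family of oocyte genes, -0.29 (limma adjusted p 0.81).

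Over both intervals 3 of 22 tested genes were called, against 2.48% of all tested genes. The 3 include Gm6909, which entered the fit only through its DRB libraries. Without DRB replicate 1 the count was 0, and without DRB replicate 2, Con replicate 2 or Con replicate 3 it was 1. Leaving out DRB replicate 3 gave 2 and leaving out Con replicate 1 gave 4. These were not always among the same 3 genes. Gm18204 was called when DRB replicate 3 was left out and Gm21762 when Con replicate 1 was (limma adjusted p 0.0438 and 0.0354). Gm6909 could not be counted when a DRB library was left out, as it was then not tested.

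Other genes of the 2-cell programme were set beside the families. In a list of 36 such genes 28 were tested, of which 10 were called higher and 0 lower, with 22 positive log2 fold changes and a median of 1.60, against -0.09 over all tested genes. Of all tested genes 1.53% were called higher. Of the 28, 14 had all DRB libraries above all Con libraries, against 9.85% of all tested genes. The list was chosen with earlier results of these data known, so its counts are a description and not a test. Several of its genes are copies of the same multi-copy families and are not independent of each other. Tcstv3, at 2.07, lay above the list's median, and Tcstv1 and the 4 tested Zscan4 copies, at 0.77 and at 0.10 to 0.58, lay below it. Whether the families differ from the list was not tested.

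The 4 called genes with the largest changes were Gm2016, Gm10696, B020004J07Rik and Pramef25. Gm10696 stood at 93.7, 83.0 and 57.4 FPKM in DRB replicates 1 to 3, against 6.65, 6.34 and 4.42 FPKM in Con replicates 1 to 3 (log2 fold change 3.53 ± 0.34 SE, limma adjusted p 0.00057). Gm2016 stood at 124.8, 290.1 and 58.2 FPKM in DRB replicates 1 to 3, against 13.5, 5.61 and 13.3 FPKM in Con replicates 1 to 3 (limma adjusted p 0.00875). B020004J07Rik stood at 86.9, 45.8 and 33.4 FPKM in DRB replicates 1 to 3, against 2.32, 4.07 and 5.27 FPKM in Con replicates 1 to 3 (limma adjusted p 0.00364). Pramef25 stood at 17.05, 51.0 and 7.75 FPKM in DRB replicates 1 to 3, against 0.81, 0.78 and 1.01 FPKM in Con replicates 1 to 3 (log2 fold change 3.44, limma adjusted p 0.0158). Its Con values were thus close to the filter of 1 FPKM. In all 4 genes the groups did not overlap. The list had 3 calls without DRB replicate 1 and 7 to 10 without 1 of the other libraries.

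**Figure D5:**
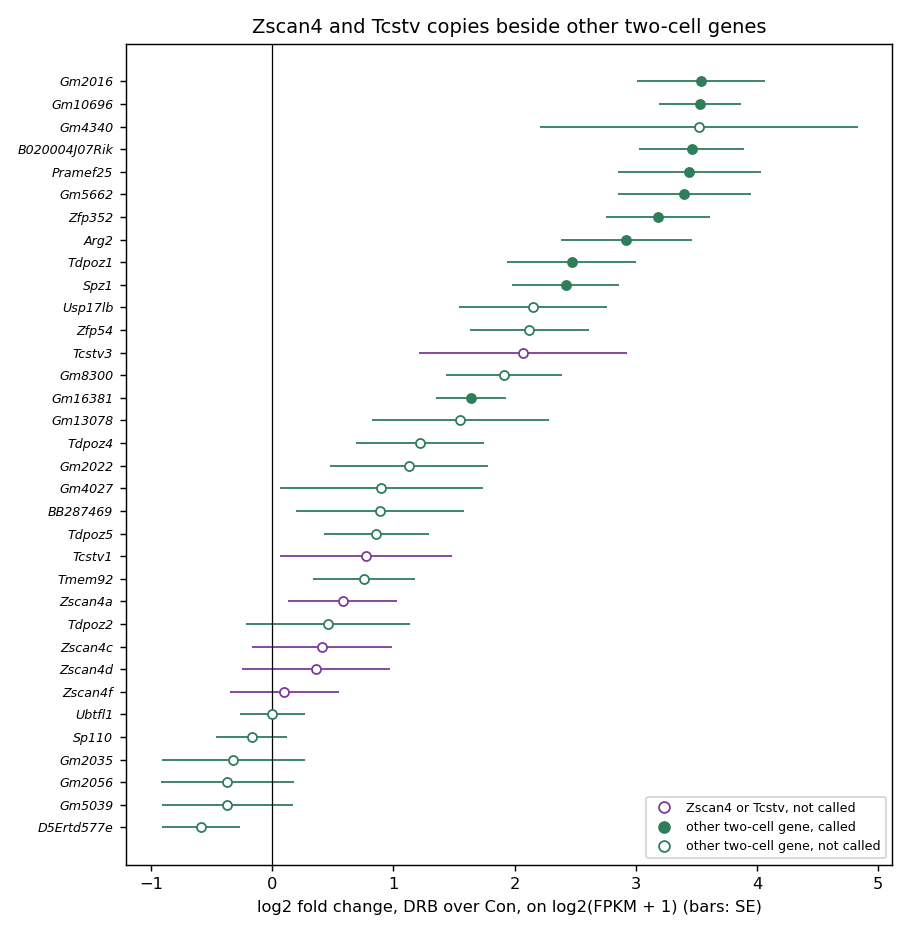
Points give the log2 fold change of DRB over Con with bars of 1 SE, purple for the 6 tested Zscan4 and Tcstv copies and green for 28 other 2-cell genes, filled where the gene was called. Tcstv3 stands at 2.07 with the widest bar of the 6, and the Zscan4 copies at 0.10 to 0.58.

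Regulators and partners of the families gave few calls. Of 8 activators of the programme 7 were tested and 0 were called, against 2.48% of all tested genes. Their median log2 fold change was -0.42. At an unadjusted limma p below 0.05 there were 2, where 18.1% of all tested genes were. Those 2, Dppa2 and Obox3, differed in opposite directions. Obox3, an oocyte and embryo homeobox gene named here after its values were seen, stood at 10.99, 26.5 and 3.92 FPKM in DRB replicates 1 to 3, against 3.59, 4.23 and 2.46 FPKM in Con replicates 1 to 3, with overlapping groups (log2 fold change 1.43, limma adjusted p 0.22). Duxf3, the Dux gene of these files, was at 0 in all 3 DRB libraries and at 0.19, 0 and 0.41 FPKM in Con replicates 1 to 3. Dppa4 and Dppa2, chromatin proteins upstream of Dux in embryonic stem cells, were abundant. Dppa4 stood at 533.1, 584.6 and 703.0 FPKM in DRB replicates 1 to 3, against 764.0, 672.1 and 526.6 FPKM in Con replicates 1 to 3. Dppa2 stood at 474.9, 447.0 and 382.4 FPKM in DRB replicates 1 to 3, against 911.7, 574.8 and 552.9 FPKM in Con replicates 1 to 3, so that its DRB libraries were all lower (log2 fold change -0.61, limma adjusted p 0.264). Of 26 repressors of the programme known from mouse embryonic stem cells 25 were tested. Their median was -0.02 and 1 was called, against 2.48% of all tested genes. This was Zmym2, a zinc-finger protein of histone deacetylase and demethylase complexes, at 49.6, 61.2 and 45.8 FPKM in DRB replicates 1 to 3, against 14.8, 21.9 and 21.3 FPKM in Con replicates 1 to 3 (log2 fold change 1.40 ± 0.31 SE, limma adjusted p 0.0405). Leaving out any 1 of the 6 libraries ended the call of Zmym2.

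Among 23 genes of telomere upkeep and Zscan4 partners 20 were tested, with a median of -0.32. Of these, 0 were called by limma, against 2.48% of all tested genes. At an unadjusted limma p below 0.05 there were 3, against 18.1% of all tested genes. The 2 most abundant of the list, Dkc1 of the telomerase complex and the chromatin remodeller Atrx, stood at -0.25 and -0.48 on the log2 fold scale (adjusted p by limma 0.762 and 0.536). Among 12 other Zscan genes, named for the SCAN domain and zinc fingers, 6 were tested. GENCODE types Zscan30, among the 12, as a pseudogene. By limma 0 of the 6 were called, against 2.48% of all tested genes. Of these 6, 1 had an unadjusted limma p below 0.05, against 18.1% of all tested genes. Zscan5b and Zscan26, the most abundant, stood at 0.30 and -0.53 on that scale (adjusted p by limma 0.691 and 0.566).

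The genes whose levels ran most like the family sums over the 6 libraries were found by Pearson's r of log2(FPKM + 1), given as a description with no test. For the Zscan4 sum they were Rnf146 (r = 0.996), Prpsap2 (0.990), Rabgef1 (0.984), Trim61 (0.980) and Pla2g4c (0.974). For the Tcstv sum they were Gm6978 (r = 0.991), Rab2b (0.985), Gm21293, Gm21312 and Gm20765 (each 0.979). Over 6 points the highest r among so many genes is high by selection, and all 10 genes overlapped between DRB and Con.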

How the data were processed

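Smart-Seq2 libraries of mouse 4-cell embryos (3 DRB, 3 Con) were analysed from 1 table per library. Per the file headers, each deposited table lists genes with their FPKM; cutadapt 1.16, STAR and build mm10 are named in the submitters' processing notes, and how reads that match several places were treated is not stated in them. Genes with at least 1 FPKM in at least 3 libraries (11893) entered a fit with group as the single term and a trended variance (limma 3.58.1, R 4.3.3), made on log2(FPKM + 1). Genes were called at a Benjamini-Hochberg adjusted p below 0.05 over all tested genes; fold changes are DRB over Con and understate the change of low genes. The fit was tried on simulated data with independent normal values and large planted changes in well expressed genes. That trial does not show how the fit handles small changes or low copies. Sequences came from GENCODE M21 and RefSeq, and were compared with mafft 7.526 and blastn. The depth was estimated from FPKM steps and limits low copies most. Members and lists were chosen with earlier results of these data known. Named genes were the members, up to 4 called genes per list and direction by absolute fold change (the 2 most abundant where none was called), genes within 500 kb and the 5 genes most like each family sum. Alternatives were the pseudocount, the filter, the scaling, a replicate block and leaving out each library.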

Additional observations from a re-analysis of the deposited data

How the results depend on the processing

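The count of Zscan4 and Tcstv copies called was 0 under all 12 alternatives tried. Of 65 fold changes of single copies under them, 59 kept their direction and their side of the threshold and 6 changed sign: Zscan4c to -0.09 without DRB replicate 1 and -0.08 without Con replicate 3 (range -0.09 to 0.83 without 1 library, limma adjusted p 0.597 to 0.967 over its alternatives), Zscan4f to -0.12 without Con replicate 3, -0.07 when DRB replicate 1 was left out and -0.06 when DRB replicate 2 was (range -0.12 to 0.43, p 0.672 to 0.976), and Zscan4d to -0.36 without DRB replicate 2 (range -0.36 to 0.92, p 0.445 to 0.968). Tcstv3 had log2 fold changes of 1.00 to 2.82 and Tcstv1 of 0.05 to 1.34 without 1 library. The log2 ratio of means was 0.23 to 0.93 for the Zscan4 sum and 0.37 to 2.39 for the Tcstv sum without 1 library. The cause was not tested. Over all genes the 295 calls became 164 with a pseudocount of 0.1, 6 with no filter on low values, 171 with the replicate block and 47 to 220 without 1 library. Same-numbered libraries did not deviate together (r -0.047, 0.053 and -0.051). With 3 libraries a group this gave no sign of pairing by replicate number but cannot exclude it. The list of 2-cell genes had 1 call with no filter. The neighbours had 5 calls with median-of-ratios scaling and 0 with no filter. Both scalings moved the median of all genes, by 0.09 with median-of-ratios and 0.11 with mitochondrial genes left out. Alternatives for the neighbours, the 2-cell list, the Tcstv ratio and the sum with pseudogene-named copies were chosen after seeing the data. The sum with those copies had a ratio of 1.48. The low copies rest on few fragments, and 3 libraries a group limit what can be called.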

Other observations

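Among the genes whose levels ran most like the Tcstv sum, Gm21293, Gm21312 and Gm20765 lie on chromosome 10, away from both clusters, and their longest annotated transcripts are identical. Gm21293 had 5.76, 54.5 and 12.0 FPKM in DRB replicates 1 to 3, against 19.8, 5.35 and 0.71 FPKM in Con replicates 1 to 3 (log2 fold change 1.48, limma adjusted p 0.424). Gm21312 and Gm20765 had the same values in every library, 4.62, 44.8 and 7.65 FPKM in DRB replicates 1 to 3, against 14.3, 5.35 and 0.71 FPKM in Con replicates 1 to 3 (log2 fold change 1.25, limma adjusted p 0.489). DRB replicate 2 was the highest and Con replicate 3 the lowest library in these 3 genes, as in Tcstv3, and the groups overlapped.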
